A study of Rattus norvegicus with 12 samples.

Results

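The genes described are the rat ion channel and neurotransmitter receptor subunits on the array: all those whose single gene symbol begins with Cacn, Kcn, Scn and a digit, Gabr, Gria, Grin and a digit, Grik, Grm and a digit, Glra or Chrn. They number 169 of the 14218 genes that the array platform's table names with 1 symbol, each represented by 1 probe set, that of highest average signal across the 12 arrays. By family they are 24 voltage-gated calcium channel subunits (Cacn), 75 potassium channel subunits (Kcn), 12 voltage-gated sodium channel subunits (Scn), 23 glutamate receptor subunits and receptors (Gria, Grik, Grin, Grm), 16 GABA-A receptor subunits (Gabr), 3 glycine receptor subunits (Glra) and 16 nicotinic acetylcholine receptor subunits (Chrn). A line mean of 5 or more on the log2 scale, over the 2 arrays of a line, was the level for reporting a gene, and 65 of the 169 reached it in at least 1 line.

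The arrays came from 6 rat cell lines, 2 for each of 3 cell type labels and 2 arrays for each line. A1 and A2 are labelled induced pluripotent stem (iPS) cells of the FHH strain, which the series' title says were derived with a transposon system, and they were sampled 5 days after passage. DAC2 and DAC8 are labelled embryonic stem (ES) cells, sampled 5 days after passage, with no strain given. REF1 and REF2 are labelled embryonic fibroblasts (EF) of the FHH strain, taken from e14.5 embryos and sampled 6 days after passage. Stem cell cultures had 2i medium and fibroblasts had serum-based MEF medium, and the iPS lines grew on mitotically inactivated mouse feeder fibroblasts whose removal the labels do not mention. The stated purpose of the series was to compare iPS with ES cells in their expression profile.

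Voltage-gated channels are built from a pore-forming alpha subunit and auxiliary subunits that change its gating and its delivery to the membrane, and ligand-gated receptors are assembled from several related subunits around a pore. Neurons exchange subunits as they mature: embryonic brain uses the sodium channel alpha subunit Scn3a and GABA-A receptors with alpha2, alpha3 or alpha5 subunits, and adult brain uses more of Scn1a and Scn8a, the NMDA receptor subunits Grin2a and Grin2c, and fast potassium channels such as Kcna1, Kcna2 and Kcnc1. Fibroblasts and pluripotent cells also carry potassium and calcium channels, so that a channel transcript alone does not mark a neuron.

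The labels and the expression profiles did not run in parallel, and every array was kept under its label. Summed linear signals of 13 neuron marker genes were 34796 to 35227 in the A1 and A2 arrays and 1786 to 3227 in the others, and 11 or 12 of the 13 were higher in the iPS lines in each comparison with another line. Rbfox3, a marker of mature neurons, lay between 3.17 and 3.69 in every line. Naive pluripotency genes (6 measured) summed to 10655 to 10874 in DAC2 and REF2, 1342 to 1991 in DAC8 and REF1 and 198 to 244 in A1 and A2. The defining marker Esrrb was below 5 in A1, A2, DAC8 and REF1. Other genes of this list were not: 2 of the 6 reached 5 in A1 and 3 in A2, Klf4 among them (6.85 and 6.15). In DAC8 3 did, in REF1 4, and in DAC2 and REF2 6. Fibroblast markers (9 genes) summed to 50065 to 57615 in DAC8 and REF1 and 183 to 258 in the other lines. The arrays labelled DAC8 therefore carried a fibroblast profile and those labelled REF2 an ES-like one. Those labelled A1 and A2 held neuron and neural progenitor transcripts, with the lowest summed signal of naive pluripotency genes. For this reason each of the 4 other lines was set against the iPS lines singly. Array medians over all probe sets ranged from 5.28 to 5.41, and the difference between 3' and 5' actin control probe sets was 0.42 to 0.52 in DAC8 and REF1 and 0.84 to 1.05 in the other 4 lines. That difference in RNA or labelling moves with the groups, and its part in the results was not tested.

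Most channel and receptor subunits read low in every line. Per line, 34 to 43 of the 169 reached 5 (20.1% to 25.4%), against 66.8% to 67.9% of all genes. REF2 had 43 such members, DAC2 42, A1 39, A2 38, and DAC8 and REF1 34 each. Counts in single arrays ran from 32 to 48, and the 2 arrays of REF2 alone gave 39 and 48. The order of the lines is thus separated only in part. The range of REF2 overlapped those of A1, A2 and DAC2, and that of A2 (35 to 39) overlapped that of DAC8 (33 to 37). All arrays of A1, DAC2 and REF2 (38 to 48) lay above all arrays of DAC8 and REF1 (32 to 37). With the probe sets of a gene averaged, the counts were 26 in A1, 25 in A2 and REF2, 24 in DAC2 and DAC8 and 21 in REF1, and DAC2 and REF2 no longer led. At a level of 7 the order differed: A1 and A2 had 7 members each, DAC8 and REF1 5 each, DAC2 3 and REF2 2. A level of 5 lies close to the array median and is not a detection call, and a level says nothing of one gene against another, since each probe set has its own probes. In bulk RNA, fewer cells that carry a transcript and less transcript per cell cannot be told apart.

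**Figure D1:**
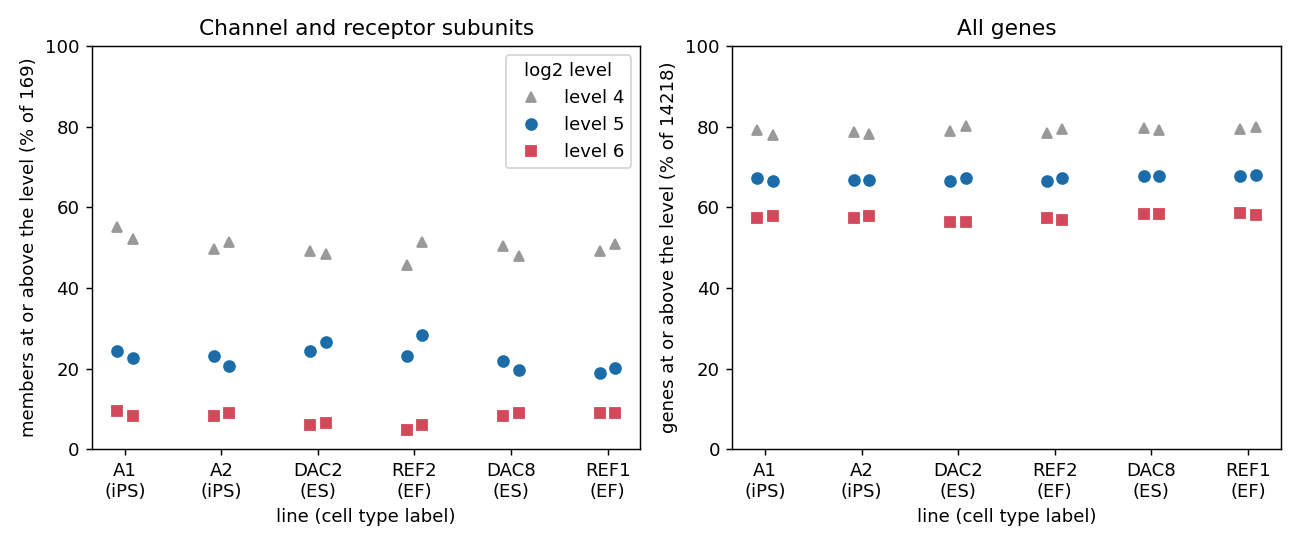
Percentage of the 169 channel and receptor subunits (left) and of all 14218 genes (right) at or above log2 levels of 4, 5 and 6 in each of the 12 arrays, with the 2 arrays of a line side by side. At level 5 the subunits lie between 18.9% and 28.4% in every array and all genes between 66.6% and 68%.

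Of the 65 reported members, 27 differed by less than 1 log2 unit between their highest and lowest line, and 38 (58.5%) differed by 1 or more, against 63.5% of the 11001 genes of the whole table with a line mean of 5 or more. Among the 27 even members, 6 had a line mean of 6 or more, and they are named here after their levels were seen: the potassium channel genes Kcnip3, Kcnh3 and Kcnk2, the calcium channel gamma subunit Cacng2, the metabotropic receptor Grm8 and the GABA-A receptor delta subunit Gabrd. In 18 members every line reached 5 (10.65% of the 169, against 57.29% of all genes). In 7 only A1 and A2 did, in 6 only DAC2 and REF2, and in 3 only DAC8 and REF1. Taking A1 with A2, DAC2 with REF2 and DAC8 with REF1, pairs that cross the ES and EF labels, 44 of the 65 reached 5 in both or neither line of every pair. The other 21 split a pair, among them 4 at 5 in DAC2 alone, 3 in REF2 alone and 2 in REF1 alone. The pairs follow the profiles of these same arrays. Apart from that for every line at 5, shares of all genes with these patterns were not counted. The pattern counts are therefore no result about the members. The members closest to the level of 5 were Kcnj11 and Kcnn1 (highest line means 5.01 and 5.03) on one side, and Grin2d and Grin2a (4.99 and 4.98) on the other.

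**Figure D2:**
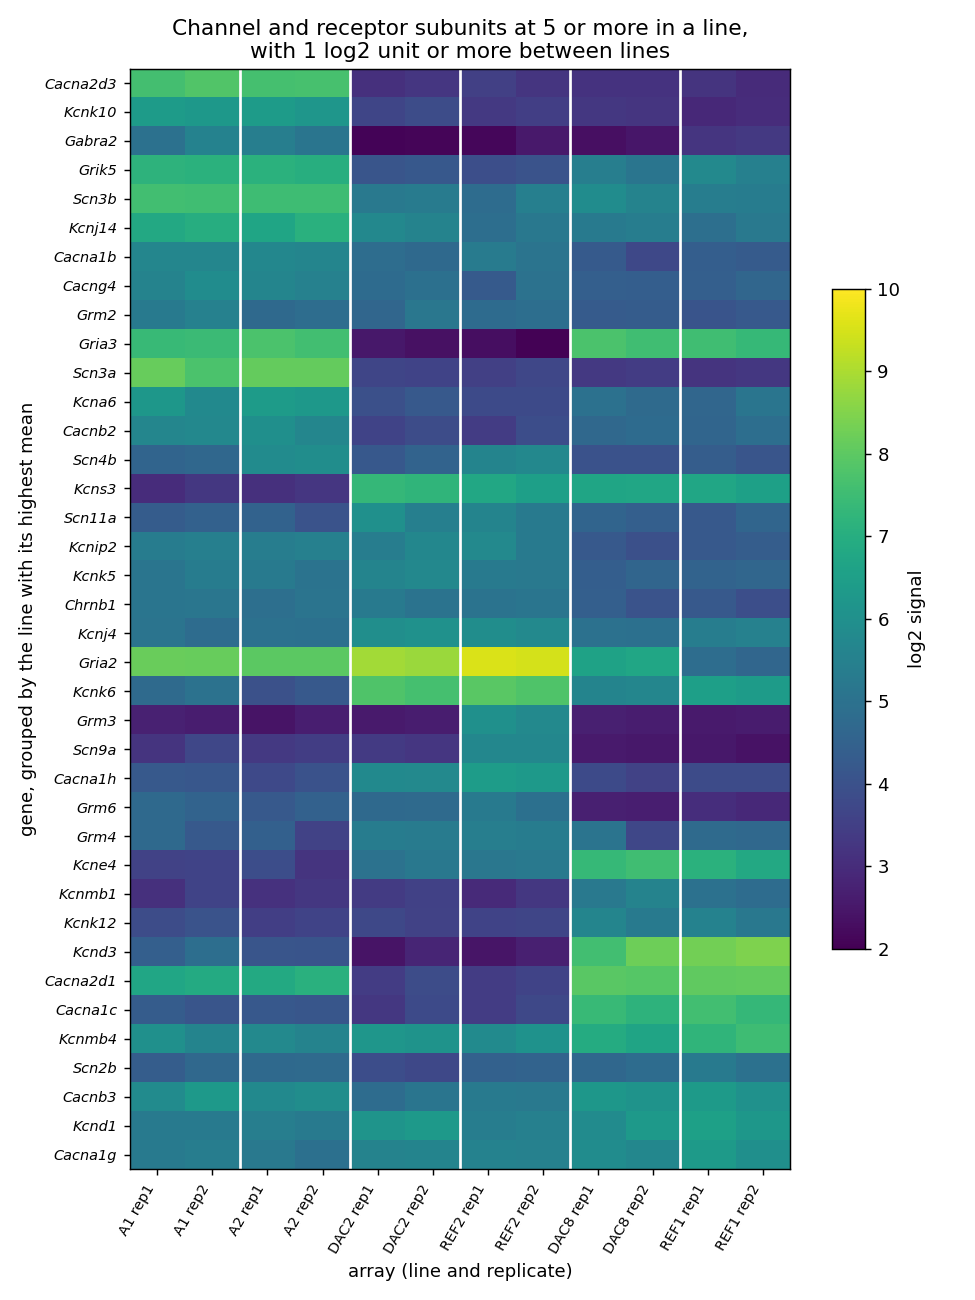
Log2 signal of the 38 reported subunits with 1 log2 unit or more between lines, 1 row per gene and 1 column per array, with genes grouped by the line of their highest mean and white rules between lines. Cacna2d3, Kcnk10 and Scn3b, in the A1 group, and Scn3a, in the A2 group, are higher in A1 and A2 than in all other lines. Kcns3 is low in A1 and A2 alone, and Gria3 and Cacna2d1 are low in DAC2 and REF2 alone.

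A gene was called different at an adjusted p below 0.05 in limma (Benjamini-Hochberg over all 14218 genes), with at least 1 log2 unit (2-fold) between means and a mean of at least 5 on the higher side. Against DAC2, 19 of the 169 members were called, 12 higher and 7 lower in the iPS lines (11.2%), where 22.4% of all genes were called, 12.3% higher and 10.1% lower. Against REF2, 21 were called, 12 higher and 9 lower (12.4%, against 23.2% of all genes, 11.8% higher and 11.4% lower). Against DAC8, 22 were called, 13 higher and 9 lower (13%, against 24.2% of all genes, 11.8% higher and 12.4% lower). Against REF1, 23 were called, 14 higher and 9 lower (13.6%, against 24.9% of all genes, 12.5% higher and 12.4% lower). By this rule the 104 members under 5 in every line cannot be called, so the lower share of members called is not a result about them. Nothing in the labels says that both arrays of a line had a culture of their own, so these p-values measure only the spread between arrays, which may be technical. The 4 comparisons share the iPS arrays and are not independent of each other.

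Called in 1 direction against all 4 lines were 11 members. The share of all genes called in this way was not counted, so 11 is not read as many or few. The 8 higher in the iPS lines were the sodium channel subunits Scn3a and Scn3b, the calcium channel subunit Cacna2d3, the potassium channel genes Kcnk10, Kcna6 and Kcnj14, the kainate receptor subunit Grik5 and the GABA-A receptor subunit Gabra2. The 3 lower in the iPS lines were the potassium channel genes Kcns3, Kcnk6 and Kcne4. In these 11 no iPS array overlapped an array of any other line. The same held for every member called in each of the 4 comparisons, so it does not set the 11 apart. When the probe sets of a gene were averaged, Kcna6 lost all 4 calls and Kcnk6 that against DAC8 (-0.87).

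**Figure D3:**
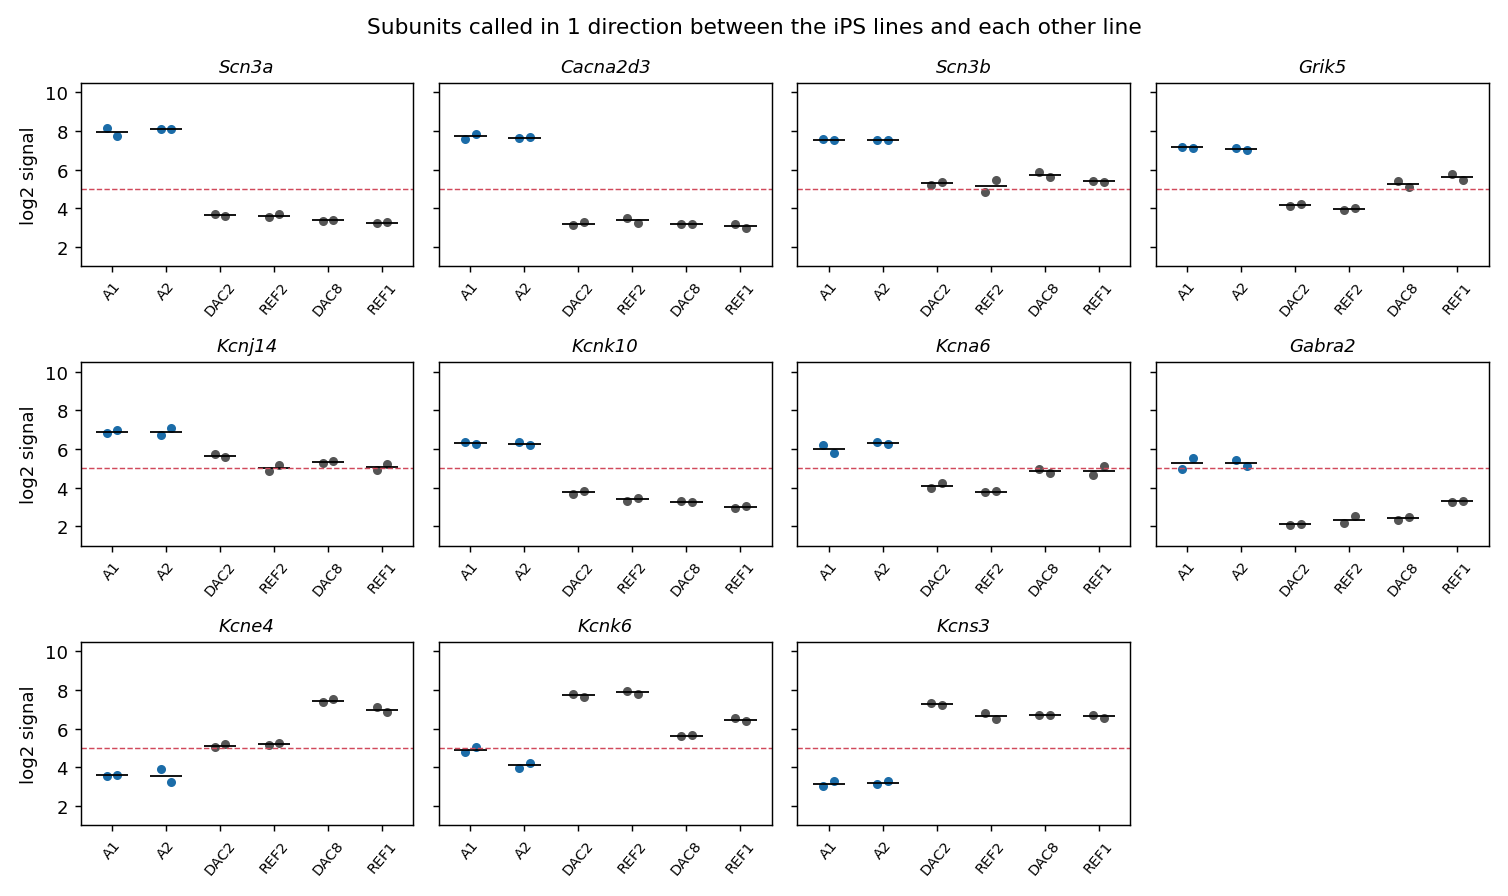
Log2 signal in each of the 12 arrays for the 11 subunits called in 1 direction against all 4 other lines, with the A1 and A2 arrays in blue, a black bar at each line mean and a dashed line at the level of 5. In the first 8 panels the A1 and A2 points lie above all others, and in the last 3 they lie below.

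Promoter sequences are shown for Scn3a, Cacna2d3 and Kcns3, the 3 members that differed by more than 3 log2 units between the iPS lines and each of the 4 other lines. Each runs 5' to 3' on the gene's own strand, over 300 bases around the annotated start, most of them before it, and comes from RefSeq on the GRCr8 assembly, with CG dinucleotides in capitals. Scn3a lies at chr3:70666149-70666448 on the minus strand, Cacna2d3 at chr16:4918850-4919149 on the minus strand, and Kcns3 at chr6:39584056-39584355 on the minus strand.
Scn3a: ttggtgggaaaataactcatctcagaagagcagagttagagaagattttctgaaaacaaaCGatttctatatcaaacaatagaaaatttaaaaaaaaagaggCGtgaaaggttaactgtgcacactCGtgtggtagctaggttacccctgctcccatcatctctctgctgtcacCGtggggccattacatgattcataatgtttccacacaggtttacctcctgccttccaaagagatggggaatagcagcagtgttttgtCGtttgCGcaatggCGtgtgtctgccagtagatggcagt
Cacna2d3: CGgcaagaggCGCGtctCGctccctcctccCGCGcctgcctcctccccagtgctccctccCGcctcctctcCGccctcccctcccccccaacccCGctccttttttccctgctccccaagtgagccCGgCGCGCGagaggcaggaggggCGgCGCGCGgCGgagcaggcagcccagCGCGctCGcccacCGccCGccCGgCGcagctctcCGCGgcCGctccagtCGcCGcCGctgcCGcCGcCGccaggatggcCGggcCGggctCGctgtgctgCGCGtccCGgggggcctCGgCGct
Kcns3: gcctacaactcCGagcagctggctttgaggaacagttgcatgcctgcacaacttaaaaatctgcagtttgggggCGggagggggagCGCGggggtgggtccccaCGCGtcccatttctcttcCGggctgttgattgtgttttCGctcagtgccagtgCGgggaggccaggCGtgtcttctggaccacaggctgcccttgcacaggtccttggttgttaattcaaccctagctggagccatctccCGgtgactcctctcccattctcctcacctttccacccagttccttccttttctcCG
The Scn3a window has 7 CG dinucleotides and 43.3% G and C, the Cacna2d3 window 42 and 79.3%, and the Kcns3 window 12 and 58.3%. The 33469 promoters of the table have a median of 7 CG dinucleotides and 51.7% G and C, and the 121 members with an entry have medians of 12 and 60.3%. The windows of Scn3a and Cacna2d3, which share their pattern over the 6 lines, thus stand on either side of the members' medians. Of the 8 members higher in the iPS lines, 5 have an entry, and 0 of these 5 holds CAGATG or CAGCTG on either strand, the E-box forms often quoted for proneural helix-loop-helix factors. CAGATG occurs in 16.6% of all promoters and in 13 of the 121 members (10.7%), and CAGCTG, which reads the same on both strands, in 15.1% and in 32 of 121 (26.4%). Kcns3 holds 1 CAGCTG. These are matches of letters in a window of 300 bases and are no evidence of binding.

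All 6 reported sodium channel genes differed by 1 log2 unit or more between lines, and the embryonic alpha subunit Scn3a and the auxiliary subunit Scn3b were those called higher in the iPS lines against all 4 others. Scn3a read 8.15 and 7.73 in A1 and 8.11 and 8.12 in A2, against 3.68 and 3.61 in DAC2, 3.52 and 3.69 in REF2, 3.33 and 3.41 in DAC8 and 3.22 and 3.29 in REF1. The 4 iPS arrays stood together and far above the other 8, which lay within 1 log2 unit of each other. Differences against the 4 lines were 4.38 to 4.77 log2 units (SE 0.11), with adjusted p-values of 8.21e-10 or less. Scn3b, whose product associates with sodium channel alpha subunits, read 7.57 and 7.54 in A1 and 7.51 and 7.52 in A2, against 5.22 and 5.34 in DAC2, 4.84 and 5.45 in REF2, 5.88 and 5.59 in DAC8 and 5.39 and 5.37 in REF1. It reached 5 in every line but was higher in the iPS lines by 1.80 to 2.39 (SE 0.15, adjusted p at most 2.94e-06). A second probe set of Scn3b gave 7.19 and 7.32 in A1 and A2 and 3.10 to 3.60 in the other lines, the same order with a wider gap.

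The later alpha subunits Scn1a and Scn8a did not reach 5. Scn1a read 4.38 and 4.75 in A1, 3.87 and 4.44 in A2, 2.30 in both DAC2 arrays, 2.52 and 2.51 in REF2, 3.47 and 3.85 in DAC8 and 3.43 and 4.02 in REF1. Its iPS mean was higher than each other line's by 0.64 to 2.06, with an adjusted p below 0.05 against all 4, but under the level of 5 it was not called. Scn8a had line means of 3.12 to 4.05 and was likewise higher in the iPS lines by 0.57 to 0.82. Scn2a, another brain alpha subunit under 5 (like Scn10a, named after its values were seen), had another pattern, with means of 4.90 in A1, 4.55 in A2 and 4.78 in DAC8, 3.95 in REF1 and 2.47 and 2.25 in DAC2 and REF2, and its iPS mean differed from that of DAC8 by -0.055 (adjusted p 0.838).

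The other sodium channel genes had their highest means in various lines. Scn9a, an alpha subunit of sensory neurons, read 5.70 and 5.71 in REF2 and 2.38 to 3.70 in the other 10 arrays, and was lower in the iPS lines than in REF2 by 2.28 (SE 0.12, adjusted p 1.34e-07). Scn11a, another sensory neuron alpha subunit, had means of 5.73 in DAC2 and 5.45 in REF2 and of 4.27 to 4.50 elsewhere, and was called lower in the iPS lines against both, by 1.39 and 1.11. The call against REF2 was lost without A2 replicate 2 (difference -0.995) or REF2 replicate 1 (-0.95). Scn10a, the remaining sensory neuron alpha subunit measured, lay at 4.34 to 4.97 in every line. The auxiliary subunit Scn2b had its highest mean in REF1 (5.14) and its lowest in DAC2 (3.80), and was called in no comparison with the iPS lines.

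Of the 14 reported calcium channel genes, 9 differed by 1 log2 unit or more between lines: 4 of 7 pore subunits, both alpha2delta subunits, 2 of 3 beta subunits and 1 of 2 gamma subunits. Cacna2d3, an alpha2delta subunit, read 7.60 and 7.83 in A1 and 7.63 and 7.68 in A2, and 2.98 to 3.50 in the 8 other arrays. The 2 sets of arrays were separated by more than 4 log2 units, and the differences against single lines were 4.31 to 4.60 (SE 0.10, adjusted p at most 6.64e-10). Cacna2d1, the alpha2delta subunit of heart and skeletal muscle and of many neurons, read 6.72 and 6.88 in A1 and 6.87 and 7.09 in A2, 3.43 and 3.85 in DAC2, 3.44 and 3.60 in REF2, 7.94 and 7.88 in DAC8 and 8.05 and 8.08 in REF1. DAC8 and REF1 were high, the iPS lines somewhat lower and DAC2 and REF2 low, with no overlap between these pairs of lines. The iPS mean was 3.25 above DAC2 and 3.37 above REF2, and 1.02 below DAC8 and 1.17 below REF1 (SE 0.12, adjusted p at most 3.42e-05). The call against DAC8 sat just past 1 log2 unit and was lost when A1 replicate 1, A2 replicate 1 or DAC8 replicate 1 was left out (differences of -0.98, -0.97 and -0.99).

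Pore subunits of calcium channels separated the other lines from each other. Cacna1c, the L-type alpha1 subunit of heart, smooth muscle and brain, read 7.39 and 7.17 in DAC8 and 7.57 and 7.33 in REF1, and 3.30 to 4.33 in the other 8 arrays, and was lower in the iPS lines than in DAC8 and REF1 by 3.08 and 3.25 (SE 0.15, adjusted p at most 7.38e-08). Its other probe set was flat, at 3.42 to 4.14. Cacna1h, a T-type alpha1 subunit, was at 5.79 in DAC2 and 6.35 in REF2 and at 3.69 to 4.21 in the other lines, lower in the iPS lines than in that pair by 1.74 and 2.30 (SE 0.09). Cacna1b, the N-type alpha1 subunit that drives transmitter release at synapses, read 5.64 to 5.69 in the 4 iPS arrays, 4.73 to 5.32 in DAC2 and REF2 and 3.74 to 4.39 in DAC8 and REF1. It was called higher in the iPS lines against DAC8 (by 1.68) and REF1 (by 1.32), the latter lost with its probe sets averaged (0.78). Among the beta and gamma subunits, Cacnb2 was higher in the iPS lines (means 5.70 and 5.81) than in DAC2, REF2 and REF1, by 2.03, 2.10 and 1.00, but the 2 other Cacnb2 probe sets stayed at 2.40 to 3.01, and all 3 calls were lost with the probe sets averaged (0.89, 0.95 and 0.52). Cacng4, of the family that includes AMPA receptor partners, was higher than in REF2, DAC8 and REF1 by 1.01, 1.25 and 1.14. Cacnb3 was called only against DAC2, by 1.00 (adjusted p 0.000169). Some of these calls lay near the 2-fold threshold and were lost when 1 array was left out. For Cacnb2 against REF1 the difference was 0.99 without A1 replicate 2, 0.93 without A2 replicate 1 and 0.86 without REF1 replicate 1. For Cacng4 against REF2 it was 0.93 without A1 replicate 2, 0.98 without A2 replicate 1 and 0.64 without REF2 replicate 1, and for Cacnb3 it was 0.89 without A1 replicate 2, 0.97 without A2 replicate 2 and 0.85 without DAC2 replicate 1. Other scalings also ended calls: Cacnb3 against DAC2 was at 0.97 after quantile normalization and 0.89 with equal medians, and Cacng4 against REF2 at 0.97 and 0.99.

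Potassium channel genes were the largest family, with 75 members, of which 29 reached 5 in a line and 46 did not. Kcnk10, a 2-pore-domain leak channel, read 6.38 and 6.25 in A1, 6.38 and 6.19 in A2 and 2.93 to 3.85 in the other 8 arrays. The iPS arrays did not overlap the rest, and differences were 2.54 to 3.32 (SE 0.08, adjusted p at most 5.09e-09). A second Kcnk10 probe set showed the same split, at 6.33 and 6.27 in A1 and A2 and 2.23 to 2.49 in the other lines. Kcnj14, an inward rectifier, read 6.70 to 7.09 in the iPS arrays and 4.88 to 5.73 elsewhere, higher by 1.24 to 1.86 (SE 0.14, adjusted p at most 2.88e-05). Kcna6, a Shaker-type voltage-gated alpha subunit, read 6.23 and 5.80 in A1 and 6.38 and 6.26 in A2, 3.96 and 4.25 in DAC2, 3.79 and 3.81 in REF2, 4.97 and 4.75 in DAC8 and 4.66 and 5.11 in REF1. Its differences were 1.28 to 2.37 (SE 0.16), but its 2 other probe sets were low in every line, at 2.34 to 3.50, and the calls were lost when the probe sets of a gene were averaged (0.36 to 0.75).

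The potassium channel genes lower in the iPS lines were a modifier subunit, a leak channel and a beta subunit. Kcns3, a silent modifier subunit of Kv2-type channels, read 3.01 and 3.28 in A1 and 3.11 and 3.28 in A2, against 7.32 and 7.23 in DAC2, 6.81 and 6.50 in REF2, 6.69 and 6.72 in DAC8 and 6.72 and 6.54 in REF1. All 8 other arrays lay more than 3 log2 units above all 4 iPS arrays, and the iPS mean was lower by 3.47 to 4.10 (SE 0.11, adjusted p at most 4.26e-09). Kcnk6, a 2-pore-domain channel, read 4.77 and 5.03 in A1, 3.98 and 4.24 in A2, 7.80 and 7.64 in DAC2, 7.97 and 7.79 in REF2, 5.61 and 5.67 in DAC8 and 6.52 and 6.40 in REF1. DAC2 and REF2 were high, DAC8 and REF1 between, and the iPS lines low, by 1.14 to 3.37 (SE 0.11, adjusted p at most 7.02e-06). Kcne4, an accessory subunit that dampens some voltage-gated potassium currents, ran in another order, with means of 3.59 and 3.55 in the iPS lines, 5.12 and 5.20 in DAC2 and REF2 and 7.44 and 6.98 in DAC8 and REF1. It was lower in the iPS lines by 1.55 to 3.87 (SE 0.17, adjusted p at most 2.44e-05).

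Several potassium channel genes marked the fibroblast-profile pair. Kcnd3, an A-type alpha subunit, read 7.58 and 8.23 in DAC8 and 8.29 and 8.47 in REF1, 4.07 to 4.89 in the iPS arrays and 2.42 to 2.84 in DAC2 and REF2. No array of one pair of lines overlapped another, and the iPS mean was below DAC8 by 3.54 and below REF1 by 4.01 (SE 0.20, adjusted p at most 2.32e-07). The gap of 5.79 between its highest and lowest line means was the widest among the 65 reported members, and 1 of its 2 other probe sets showed the same order (7.77 and 7.89 in DAC8 and REF1, 2.67 and 2.84 in REF2 and DAC2). Kcnk12, a 2-pore-domain subunit, was higher in DAC8 and REF1 (5.47 and 5.37) than in the iPS lines (3.95 and 3.56), by 1.72 and 1.62. Kcnmb1, the auxiliary subunit of smooth muscle calcium-activated potassium channels, was called only against DAC8, where it read 5.24 and 5.58, against 4.99 and 4.82 in REF1 and 2.95 to 3.61 in the other 8 arrays. In REF1 its mean of 4.91 was below the level of 5, so that it could not be called there. The remaining called potassium channel genes were chosen after their values were seen. Kcnip2, a calcium-binding partner of A-type channels, was higher in the iPS lines than in DAC8 and REF1 by 1.33 and 1.13. Kcnmb4, an auxiliary subunit of calcium-activated channels, was lower than in the same lines by 1.05 and 1.63, Kcnd1, another A-type alpha subunit, was lower than in REF1 by 1.08, and Kcnj4, an inward rectifier, was lower than in DAC2 by 1.03. With the probe sets of a gene averaged, the Kcnip2 differences were 0.56 and 0.48 and that of Kcnj4 -0.65, and these 3 calls were lost. With 1 array left out, Kcnmb4 against DAC8 was lost without A1 replicate 2 (-0.95) or DAC8 replicate 1 (-0.93), Kcnd1 without REF1 replicate 1 (-0.94), and Kcnj4 without A1 replicate 2 (-0.97) or DAC2 replicate 2 (-0.98).

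Among the glutamate receptor genes, 11 of 23 reached 5 in a line, and the AMPA receptor subunits divided the lines in different ways. Gria2, the AMPA subunit whose edited form keeps calcium out, read 8.18 and 8.13 in A1, 7.98 and 7.97 in A2, 8.89 and 8.81 in DAC2, 9.55 and 9.5 in REF2, 6.61 and 6.74 in DAC8 and 4.87 and 4.64 in REF1. REF2 was highest, then DAC2, the iPS lines, DAC8 and REF1, with no overlap between any of these 5 steps. The iPS mean was 1.46 below REF2, 1.39 above DAC8 and 3.31 above REF1 (SE 0.07, adjusted p at most 1.31e-07), and below DAC2 by less than 1 log2 unit. A second Gria2 probe set was also highest in REF2 (6.18) and lowest in REF1 (3.12).

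Gria3, another AMPA subunit, read 7.40 and 7.44 in A1 and 7.72 and 7.59 in A2, 7.72 and 7.56 in DAC8 and 7.56 and 7.35 in REF1, against 2.51 and 2.37 in DAC2 and 2.29 and 2.04 in REF2. The iPS lines and the fibroblast-profile pair overlapped, and DAC2 and REF2 lay more than 4 log2 units lower. It was higher in the iPS lines than in DAC2 by 5.10 and than in REF2 by 5.37 (SE 0.10, adjusted p at most 1.97e-10), and its differences from DAC8 and REF1 were not called. The second Gria3 probe set gave 6.53 to 7.24 in the 4 high lines and 2.98 and 3.28 in REF2 and DAC2. The other 2 AMPA subunit genes lay between 2.77 and 3.90 in all lines.

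Grik5, a kainate receptor subunit that forms channels with other kainate subunits rather than alone, read 7.18 and 7.11 in A1 and 7.12 and 7.0 in A2, 4.12 and 4.20 in DAC2, 3.92 and 4.03 in REF2, 5.42 and 5.12 in DAC8 and 5.76 and 5.47 in REF1. It was higher in the iPS lines by 1.48 to 3.12 (SE 0.11, adjusted p at most 9.87e-07). The 4 other kainate subunit genes lay between 3.33 and 4.63 in every line, so that Grik5 was the 1 kainate gene of 5 at the level of 5.

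NMDA receptor genes were even across the lines. Of 7, Grin1, Grin2b and Grin2c reached 5, each with under 1 log2 unit between lines, so that none of the 7 could be called. Among metabotropic receptors, Grm3 read 6.02 and 5.76 in REF2 and 2.43 to 2.75 in the 10 other arrays, lower in the iPS lines than in REF2 by 3.27 (SE 0.09, adjusted p 1.62e-09). Grm4 had means of 5.35 and 5.39 in DAC2 and REF2 and was called lower in the iPS lines against both, by 1.11 and 1.15, with an SE of 0.36. Its arrays scattered widely, from 3.56 to 4.73 in the iPS lines and at 5.09 and 3.71 in DAC8, and both calls were lost when 1 array was left out. Against DAC2 the difference and adjusted p were -0.98 and 0.0519 without A1 replicate 2, -0.89 and 0.0531 without A2 replicate 2, -1.09 and 0.0822 without DAC2 replicate 1 and -1.13 and 0.0753 without DAC2 replicate 2. Against REF2 they were -0.93 and 0.0464 without A2 replicate 2, -1.13 and 0.0789 without REF2 replicate 1 and -1.18 and 0.0696 without REF2 replicate 2. Grm6, the receptor of retinal ON bipolar cells, was at 5.12 in REF2 and 2.69 and 3.0 in DAC8 and REF1, and Grm2 was at 5.39 in A1 and 4.16 to 4.91 in the other lines. Neither was called against the iPS lines. Grm6 had means of 4.65 in A1 and 4.36 in A2, and its iPS mean was above those of DAC8 and REF1, by up to 1.82. With both sides under 5 it could not be called there.

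Receptors for GABA, glycine and acetylcholine were sparse. Of 16 GABA-A receptor subunit genes, Gabra2 and Gabrd reached 5. Gabra2, the alpha2 subunit of embryonic forebrain, read 4.99 and 5.56 in A1 and 5.43 and 5.11 in A2, 2.09 and 2.10 in DAC2, 2.15 and 2.55 in REF2, 2.32 and 2.49 in DAC8 and 3.24 and 3.33 in REF1. The iPS arrays stood apart from all others, by 1.99 to 3.18 on means (SE 0.17, adjusted p at most 3.73e-06). The other 14 genes lay between 2.10 and 4.75. Gabrd was even, at 6.45 to 6.85, and its 2 other probe sets read 3.31 to 3.93. All 3 glycine receptor genes stayed under 5, at 2.20 to 4.17.

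Of 16 nicotinic receptor genes, 3 reached 5: Chrnb1, the beta subunit of the muscle receptor, at 5.01 to 5.15 in the iPS lines, DAC2 and REF2 and at 4.23 and 4.08 in DAC8 and REF1, Chrng at up to 5.15 and the alpha7 subunit Chrna7 at 5.03 in DAC2. The other 13 lay under 5 in every line and could not be called. By limma, 0 nicotinic genes were called in the 4 comparisons with the iPS lines, where 22.4% to 24.9% of all genes were, and 8, 5, 2 and 2 of the 16 had an unadjusted p below 0.05 against DAC2, REF2, DAC8 and REF1. The nicotinic differences that passed on p were thus under 2-fold or under the level of 5.

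Neuronal maturity was compared with 2 short lists of textbook subunits, 9 of developing neurons or muscle (Grin2b, Grin2d, Grin3a, Glra2, Scn3a, Gabra2, Gabra3, Gabra5, Chrng) and 11 of adult ones (Grin2a, Grin2c, Glra1, Scn1a, Scn8a, Gabra6, Gabrd, Kcna1, Kcna2, Kcnc1, Chrne). Of the 9 earlier subunits, 3 reached 5 in A1, 2 in A2, DAC2, REF2 and DAC8 and 1 in REF1, but not the same ones. In A2 they were Scn3a and Gabra2, with Grin2b added in A1, and in DAC2, REF2 and DAC8 they were Grin2b and Chrng. Scn3a and Gabra2 were called higher in the iPS lines against each of the 4 lines, and the other 7 were not called against any of them (6, 4, 2 and 4 of the 9 had an unadjusted p below 0.05 in limma against DAC2, REF2, DAC8 and REF1). Of these 7, Grin2d, Grin3a, Glra2, Gabra3 and Gabra5 were under 5 in every line and could not be called. The remaining earlier subunits were low or even: Grin3a, Glra2, Gabra3 and Gabra5 stayed between 2.33 and 3.31, Grin2d between 4.48 and 4.99, Grin2b between 4.91 and 5.31 and Chrng between 4.75 and 5.15. By limma, the iPS mean of Grin2d was lower at an adjusted p below 0.05 against 3 of the 4 lines. Grin2b and Glra2 were lower in this way against 1 line each, and all these differences were under 1 log2 unit.

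Of the 11 later subunits, Grin2c and Gabrd reached 5, in all 6 lines, with ranges of 5.14 to 5.59 and 6.45 to 6.85. None of the 11 was called by limma between the iPS lines and any of the 4 lines, in either direction, and 8, 6, 4 and 3 of them had an unadjusted p below 0.05 against DAC2, REF2, DAC8 and REF1. Of all genes, 22.4% to 24.9% were called in these comparisons. Apart from Grin2c and Gabrd, the later subunits were under 5 in every line and could not be called. The absence of calls is therefore no result about maturity. A higher iPS mean at an adjusted p below 0.05 against all 4 lines, but under the level of 5, was found for Scn1a, Scn8a and Kcnc1, a potassium channel subunit of fast-spiking neurons with line means of 2.99 to 3.64. By limma, Grin2a and Chrne had a lower iPS mean at an adjusted p below 0.05 against 2 lines each. Grin2c, Gabra6 and Kcna1 did so against 1 line each, and all these lower differences were under 1 log2 unit. Glra1, Gabra6, Kcna1, Kcna2 and Chrne stayed under 5 in every line, and Grin2a did so by its chosen probe set, while another of its probe sets read 5.52 in REF2. The median difference between the iPS lines and the 4 others ran from -0.29 to 0.12 over the later list and from -0.28 to 0.09 over the earlier list, and from -0.15 to 0.03 over all genes. The lists of 9 and 11 genes are short, and their medians hide the 2 earlier subunits that moved by several log2 units.

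**Figure D4:**
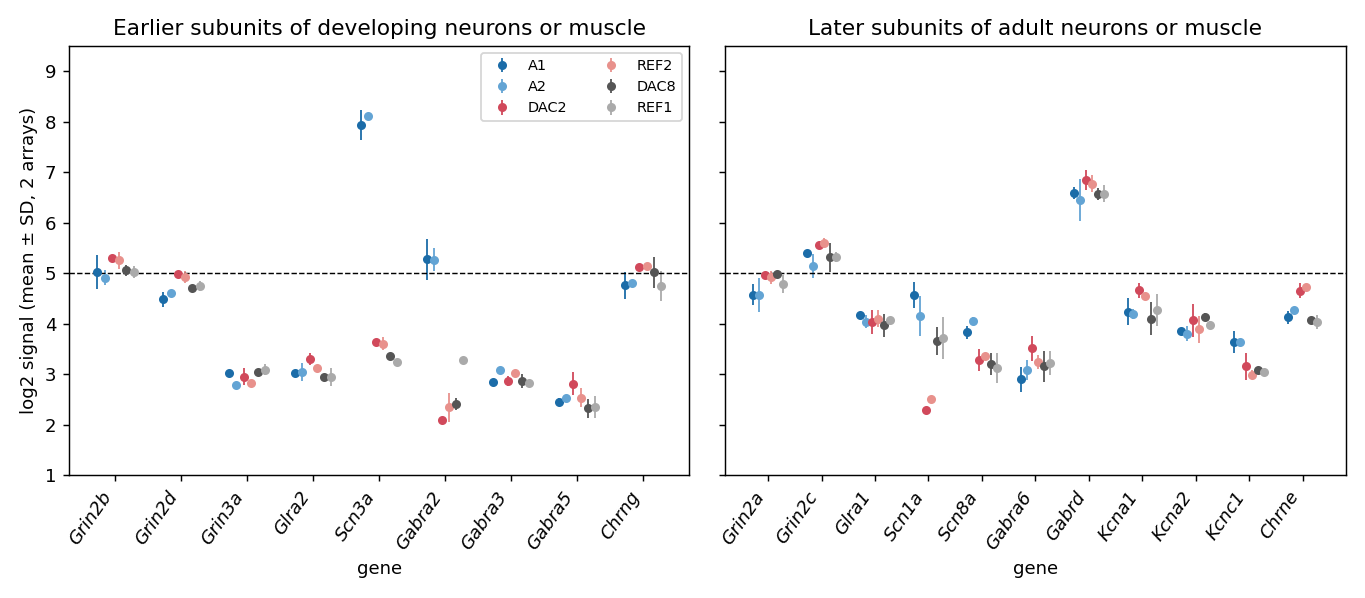
Line means of log2 signal with their SD over 2 arrays for the 9 earlier subunits (left) and the 11 later subunits (right), with a dashed line at the level of 5. Scn3a and Gabra2 stand higher in A1 and A2 than in the other lines, and the other 18 genes show no such gap at or above 5.

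The rest of the synaptic and membrane machinery was read from other lists. Of 20 measured genes of synaptic vesicle release, 8, 8, 7 and 6 were higher in the iPS lines than in DAC2, REF2, DAC8 and REF1, and 0, 0, 0 and 1 were lower. Of all genes, 12.3%, 11.8%, 11.8% and 12.5% were called higher in these comparisons, and 10.1%, 11.4%, 12.4% and 12.4% lower. These are the shares to set beside this list and the next 3. Snap25, a SNARE protein of vesicle fusion, was at 7.52 and 7.60 in A1 and A2 and 2.66 to 2.87 in the other lines, and Bsn, a presynaptic scaffold, at 7.90 and 8.05 against 4.39 to 4.69. The vesicle calcium sensor Syt1 was low throughout, at 3.34 to 3.76. Of 22 postsynaptic scaffold and adhesion genes, 6, 6, 8 and 8 were higher and 0, 1, 0 and 0 lower, with Nrxn3, a presynaptic adhesion protein, at 7.01 and 7.12 in the iPS lines and 3.96 to 4.12 in the others. Of 10 genes that anchor channels in excitable membrane, 5 were higher against each line and 0 lower, among them Sptbn4, a spectrin of the axon initial segment (6.57 and 6.61 against 3.71 to 4.53).

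Genes of transmitter synthesis, vesicle loading and chloride transport (14 measured) were higher in 4, 5, 4 and 4 cases and lower in 0, 0, 1 and 0. Gad1, which makes GABA, was at 8.25 and 8.31 in A1 and A2 and 2.09 to 2.67 in the other lines, and the vesicular GABA transporter Slc32a1 was at 6.58 and 6.22 against 2.43 to 2.67. The vesicular glutamate transporters Slc17a6 and Slc17a7 stayed under 5 in every line. The chloride exporter Slc12a5, which rises as neurons mature, was higher in the iPS lines, at 6.30 and 6.26 against 4.74 to 4.89 (differences 1.40 to 1.54, SE 0.12, adjusted p at most 3.43e-06), and the importer Slc12a2 lay between 9.04 and 9.81 in all lines. Gad2, the other GABA synthesis gene of the list, was also under 5 in every line (4.44 and 4.10 in A1 and A2, 2.86 to 3.36 in the others) and was not called.

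Among 38 channels outside the naming rule, 6, 6, 6 and 7 were higher in the iPS lines (of all genes, 12.3%, 11.8%, 11.8% and 12.5% were). Lower were 1, 2, 2 and 3 (of all genes, 10.1%, 11.4%, 12.4% and 12.4% were). Of those that were higher, the purine receptor channel P2rx3 was at 7.65 and 7.54 against 3.82 to 4.21, the acid-sensing channel Asic2 at 6.73 and 6.87 against 2.92 to 3.94, and the serotonin-gated channel Htr3a at 5.66 and 5.29 against 3.80 to 4.15. All these lists were chosen with earlier results of these arrays known, so their directions are no independent evidence. Neuron markers as a list were higher in the same arrays (median differences of 3.69 to 5.54), and 5 of 7 neural progenitor genes were also higher in the iPS lines against every line. Which cells in the cultures carry the channel transcripts was not tested. Glial genes (of 8, Slc1a3 was higher against every line and Sox10 lower against DAC8 and REF1) and skeletal muscle genes (0 of 8 called by limma, with 4, 1, 3 and 1 at an unadjusted p below 0.05, and Myod1 and Myog under 5 in every line) did not move in the same way.

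The lines that share a label, or a profile, were compared directly. Between the 2 iPS lines 1 of 169 members was called (0.592%), where 0.134% of all genes were, 0.0844% higher and 0.0492% lower in A1. It was Scn4b, a sodium channel beta subunit, at 4.59 and 4.68 in A1 and 5.86 and 5.91 in A2, a difference of -1.25 for A1 minus A2 (SE 0.12, adjusted p 0.00143). A2 resembled REF2 in this gene (5.61 and 5.73), and A1 lay just above the other 3 lines (4.01 to 4.55). The iPS mean was called higher for Scn4b than DAC8 by 1.24 and than REF1 by 1.02, the latter lost without REF1 replicate 2 (0.91). That iPS mean averages 2 unlike lines, with A2 at 5.88. A1 had a mean of 4.63, under the level of 5, beside 4.02 in DAC8 and 4.23 in REF1. The comparisons of DAC2 with REF2 and of DAC8 with REF1 were added after the levels had been seen. In the first, 3 members were called (1.78%, against 2.95% of all genes, 2.15% higher and 0.802% lower in REF2), all higher in REF2: Grm3 by 3.29, Scn9a by 2.38 and Scn4b by 1.29 (adjusted p at most 5.86e-05). In the second, 1 member was called (0.592%, against 1.15% of all genes, 0.619% higher and 0.535% lower in REF1): Gria2, lower in REF1 than in DAC8 by 1.93 (SE 0.09, adjusted p 7.31e-06). Lines with the same label but different profiles were not tested against each other. In Gria3, for example, the line means were 2.44 in DAC2 and 7.64 in DAC8, and 2.17 in REF2 and 7.45 in REF1, and in Kcnd3 they were 2.63 and 7.91, and 2.58 and 8.38.

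**Figure D5:**
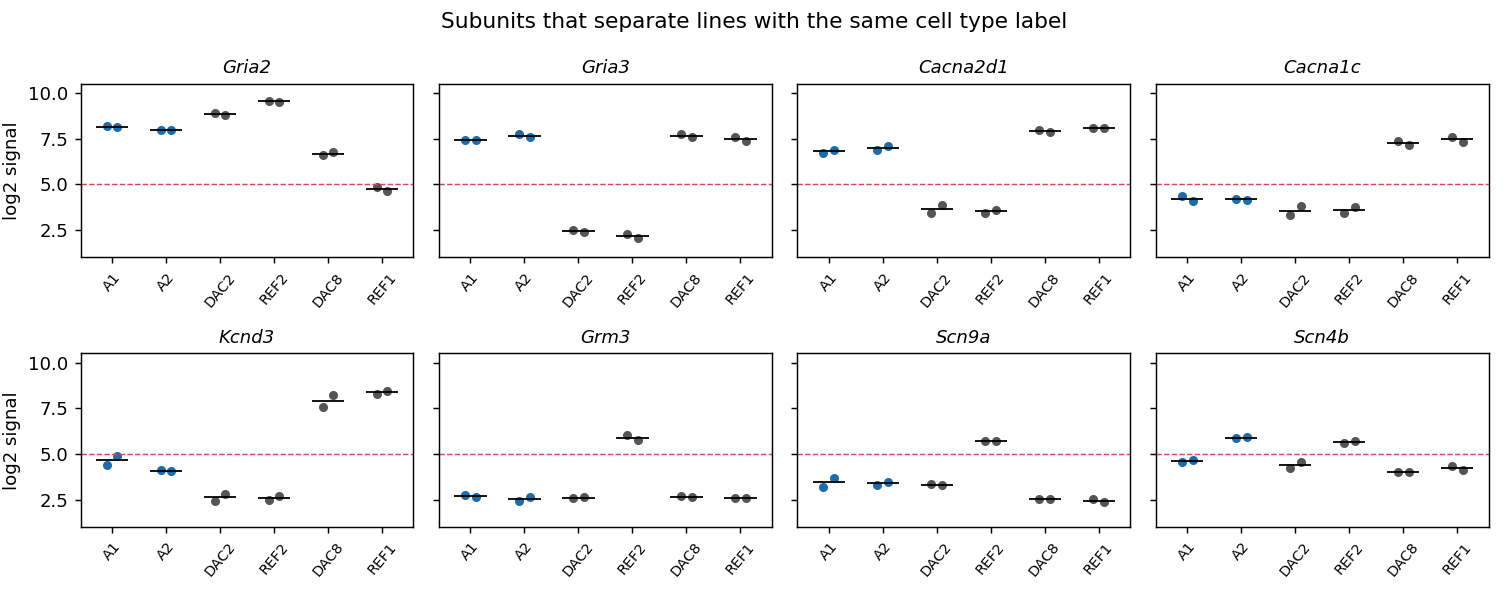
Log2 signal in each of the 12 arrays for 8 subunits that separate lines of the same cell type label, chosen after their values were seen, with the A1 and A2 arrays in blue, a black bar at each line mean and a dashed line at the level of 5. Gria3 is low in DAC2 and REF2, Cacna1c and Kcnd3 are high in DAC8 and REF1, Grm3 and Scn9a are high in REF2 alone, and Scn4b is high in A2 and REF2.

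By cell type label, with the line as the replicate and 2 lines per label, few members passed. For iPS against ES, 6 of 169 were called (3.55%, where 2.17% of all genes were, 1.69% higher and 0.478% lower): Cacna2d3 (higher by 4.51, SE 0.18, adjusted p 0.00492), Scn3a (4.52, 0.0062), Gabra2 (3.02, 0.0451), Kcnk10 (2.78, 0.0253) and Scn3b (2.03, 0.0379) were higher in iPS, and Kcns3 (-3.82, 0.0101) was lower. For iPS against EF, 6 were called (3.55%, where 2.31% of all genes were, 1.78% higher and 0.535% lower), the same genes with Kcnj14 (1.84, adjusted p 0.0276) in place of Gabra2. Both comparisons share the iPS lines. Subunits that split the lines of a label, such as Gria3 and Cacna2d1, could not be called here, because DAC8 and REF1, or DAC2 and REF2, lie in different labels. With 3 residual degrees of freedom, these calls rest on few lines. The call of Gabra2 was lost without A1 replicate 2, A2 replicate 1 or REF2 replicate 2 (adjusted p 0.0555, 0.0505 and 0.0633), and that of Scn3b against ES without REF2 replicate 2 or DAC8 replicate 2 (0.062 and 0.0562). Without A1 or A2 no member was called in either comparison, without DAC2 or DAC8 none for iPS against ES, and without REF1 or REF2 none for iPS against EF, by limma, with 8 to 20 of the 169 at an unadjusted p below 0.05. For iPS against EF, 3 were called without DAC2 and 3 without DAC8.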

How the data were processed

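The 12 RNA samples, 2 from each of 6 rat cell lines, were hybridised to single-colour Affymetrix arrays of 31099 probe sets. The deposited table holds log2 signals that the authors normalised together by RMA, with Partek 6.2 also named, per the submitters' processing notes; RMA pulls arrays to a common distribution, so a change shared by most genes would not show, and no read depth applies, the number of arrays being what limits precision. Probe sets were named through the platform annotation: 20832 had 1 symbol, 436 several and 9831 were not listed, which left 14218 genes at 1 probe set each (the highest mean over 12 arrays). All 169 members matched by gene identifier in RefSeq (GRCr8), which also supplied the promoters.

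A model with 1 mean per line was fitted to all 14218 genes with limma 3.58.1 in R 4.3.3, without a filter on low values (6 residual degrees of freedom), and p-values were adjusted by Benjamini-Hochberg over all genes. Cell type labels were compared on line means. The named genes were, in each family, up to 8 reported members with the widest gap between lines, with every subunit of the earlier and later lists and the members nearest to the level of 5. The members and the lists were chosen with earlier results of these data known, and the marker lists likewise. The fits were tested on simulated data. Alternatives were other normalisations, probe set rules, levels, filters and priors, the replicate number as a block, and each array or line left out. The main fits did not pair arrays by replicate number, and whether the numbers mark a pairing was not tested. Differences between replicates 1 and 2 correlated over 0.1 in 4 of 15 pairs of lines (-0.10 to 0.23).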

Additional observations from a re-analysis of the deposited data

Results flagged for a closer look

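Cacna2d1, the calcium channel alpha2delta subunit, moved in opposite directions within both reference labels. Among the lines labelled ES, the iPS mean minus that of DAC2 was 3.25 and minus that of DAC8 was -1.02, and among those labelled EF, it was 3.37 minus REF2 and -1.17 minus REF1. The difference between these effects was not itself tested, and the value against DAC8 fell under 2-fold without A1 replicate 1, A2 replicate 1 or DAC8 replicate 1. Gria2, the AMPA receptor subunit, did the same among the lines labelled EF, at -1.46 minus REF2 and 3.31 minus REF1, again with no test of the difference between them. Scn4b, a sodium channel beta subunit, differed between the 2 lines labelled iPS, by -1.25 for A1 minus A2 (limma, adjusted p 0.00143), with both A1 arrays below both A2 arrays.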

How the results depend on the processing

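No result reversed in direction under any alternative run. Counts of members called moved with the fold threshold: without it they were 38 against DAC2, 34 against REF2, 34 against DAC8 and 36 against REF1, 10 for DAC2 with REF2 and 4 for DAC8 with REF1. Among the 26 members with a line mean of 6 or more, limma called 0 for A1 with A2 (4 at an unadjusted p below 0.05) and 0 for DAC2 with REF2 (8), since Scn4b, Grm3 and Scn9a lie below 6. On line means, iPS against EF gave 3 with only those 2 labels fitted and 3 without DAC2 or DAC8, and 0 without A1, A2, REF1 or REF2 (8, 9, 20 and 20 at an unadjusted p below 0.05). For iPS against ES, 0 were called without A1, A2, DAC2 or DAC8 (8, 9, 17 and 18), where 0% of all genes were called too.

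With the replicate number as a block, the counts stayed at 19, 21, 22, 23, 1, 3 and 1 and changed no call in the single-line comparisons. With the line as a random block and the replicate block, 6 were called for each label comparison, 5 of them shared with the main 6. Leaving out 1 array gave 16 to 19 calls against DAC2, 18 to 21 against REF2, 21 to 23 against DAC8, 22 to 24 against REF1, 4 to 7 for iPS against ES, 6 for iPS against EF, 1 for A1 with A2, 3 for DAC2 with REF2 and 1 for DAC8 with REF1.

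Members at the reporting level numbered 87, 87, 87, 84, 84 and 85 (A1, A2, DAC2, REF2, DAC8, REF1) at a level of 4 and 15, 14, 10, 9, 15 and 16 at 6. With the mean of a gene's probe sets, 26 reached 5 in A1, 25 in A2 and REF2, 24 in DAC2 and DAC8 and 21 in REF1. By single arrays the counts were 38 to 41 in A1, 35 to 39 in A2, 32 to 34 in REF1, 39 to 48 in REF2, 41 to 45 in DAC2 and 33 to 37 in DAC8. Of 2003 values of called genes under alternatives, 1885 kept their call, 118 lost it and 0 reversed. In the label comparisons, Scn3b against ES was lost in limma with an intensity trend (adjusted p 0.0658) or the filter at 6 (0.0553). It was also lost when single arrays were fitted with the line as a random block (0.0584). Kcnj14 against EF was lost with the trend (0.0572) and the random block (0.0597). Among the calls lost with only the 2 labels fitted was Kcnk10, against ES (0.0645) and EF (0.0506). The causes were not tested.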
